A study of Mus musculus with 6 samples.

Results

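The p53 pathway was examined in LSK cells, sorted from mouse bone marrow as cells without lineage markers that carry Sca-1 and c-Kit, among which the blood stem cells are found. A list of 31 pathway and target genes was used, and each gene was followed through its brightest probe set, the one with the highest mean signal over all arrays, among probe sets annotated to that gene alone. Of the 31 genes, 29 were measured, out of 18193 genes with a probe set of their own on the array; Trp53 and Bax were not analysed here. The 3 Ercc1-deficient samples came from mice with 1 knockout and 1 truncated allele (-/d) of Ercc1, a subunit of the endonuclease that cuts damaged DNA strands during nucleotide excision and crosslink repair. Their 3 Ercc1-proficient counterparts came from litter mates, which carried +/+ in litters 1 and 2 and +/d in litter 3. All mice were F1 animals of C57BL/6 and FVB/n, aged 22 weeks in litter 1 and 20 weeks in litters 2 and 3. The labels name no tissue-restricted allele, and no source used here says whether a sample pooled several mice.

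The transcription factor p53 is stabilised when DNA is damaged and then switches on genes that halt the cell cycle, repair DNA or trigger apoptosis. Among its targets is its own inhibitor Mdm2, which marks p53 for degradation, so that the response limits itself. The related Mdm4 binds p53 and blocks its activity. In blood stem cells p53 is known to restrain proliferation and to govern survival after DNA damage. Most p53 control acts on the protein, which these arrays did not measure.

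Signals are MAS5 intensities on a linear scale with a floor of 30, and between 52.3% and 58.6% of the probe sets on an array lay at that floor. Of the 29 members, 15 were above the floor on all 6 arrays and 11 were at the floor on at least 3. Differences are on the log2(signal + 30) scale, Ercc1-deficient minus Ercc1-proficient, from limma with litter as a block. A probe set was tested when its mean signal reached the median of these means over all probe sets, 32.6, which 24 members did and 5 (Plk3, Fas, Tnfrsf10b, Zmat3 and Ddit4l) did not. Ercc1 itself measured 79.9, 34.5 and 44.9 in deficient cells of litters 1, 2 and 3, against 128, 244 and 176 in proficient cells. The groups did not overlap, and Ercc1 passed with a log2 difference of -1.36 (SE 0.27, limma, adjusted p = 0.0138), or an adjusted p of 0.9998 without the block. That call was also lost when any litter was left out, at adjusted p values of 0.615 to 0.718. The LSK marker Kit had signals of 92.2 to 125 in deficient and 123 to 231 in proficient cells, and Cd34 461 to 1370 in deficient and 1080 to 1449 in proficient cells. Samples were sorted populations measured in bulk, so fewer expressing cells and less RNA per cell cannot be told apart.

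The DNA sequence that p53 recognises is built from decamers, and RefSeq promoter windows (assembly GRCm38.p6, 250 bases before to 50 bases after each transcript start) were searched for the p53 decamer consensus. This sequence is its own reverse complement, so 1 search covers both strands. Windows were found for 23 of the 29 members, and 9 of them (39.1%) held at least 1 decamer, against 2582 of 27025 genes (9.55%). The 9 were Aen, Ccng1, Ckap2, Ddit4l, Ei24, Gadd45a, Gtse1, Mdm2 and Sesn1. The list was made up of p53 pathway and target genes, so a higher share can follow from how they were chosen. A gene counted when any of its windows held a decamer, which gives genes with several annotated starts more chances. No member window held a pair of decamers separated by at most 13 bases, which 20 of all genes (0.0740%) did, Cdkn1a among them. The stretches of Mdm2, Ccng1, Ckap2, Ei24, Aen and Sesn1 are shown because these genes were above the floor on all arrays, and that of Cdkn1a because it holds such a pair. Capitals mark the decamers.
Mdm2: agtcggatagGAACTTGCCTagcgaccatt
Ccng1: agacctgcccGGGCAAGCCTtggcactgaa
Ckap2: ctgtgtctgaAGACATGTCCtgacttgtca
Ei24: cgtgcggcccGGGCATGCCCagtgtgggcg
Aen: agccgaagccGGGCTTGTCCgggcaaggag
Sesn1: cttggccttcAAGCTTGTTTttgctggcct
Cdkn1a: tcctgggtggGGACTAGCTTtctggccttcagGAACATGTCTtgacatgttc
The Mdm2 stretch lies at chr10:117710925-117710954 on the minus strand, its decamer starting 186 bases before the transcript start. Ccng1 is shown at chr11:40755452-40755481 (minus strand, 185 bases before the start), and Ei24 at chr9:36797325-36797354 (minus strand, 10 bases before the start). Ckap2 is shown at chr8:22186003-22186032 (minus strand, 203 bases before the start). For Aen the stretch is chr7:78895927-78895956 (plus strand), 121 bases before 1 of its annotated starts, and for Sesn1 it is chr10:41887256-41887285 (plus strand), 173 bases before a start. The Cdkn1a stretch, chr17:29090896-29090947 on the plus strand, belongs to an upstream transcript start that lies 2790 bases before the other annotated one. The windows of Mdm4 and Phlda3 held no decamer. A match describes the letters of the window and does not show binding.

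No p53 member passed the test. With litter as a block, limma called 0 of the 24 tested members at an adjusted p under 0.05, where 0.835% of all 22519 tested probe sets were called, and the lowest adjusted p was 0.258, for Perp. At an unadjusted p under 0.05 there were 3 members (12.5%), namely Mdm4, Plk2 and Perp, against 11.5% of all probe sets tested. Of these, Plk2 left the floor, and so reached the filter, through 1 proficient array only. Its unadjusted p was 0.336 in limma with no filter. Without the block limma also called 0 members (0.0% of all probe sets) and 1 member, Perp, had an unadjusted p under 0.05, against 2.57% of all probe sets. The groups did not overlap for 2 members, Perp and Phlda3 (8.33% of those tested), both higher in deficient cells. Over all probe sets tested, 7.19% did not overlap, 2.3% being higher and 4.89% lower in deficient cells. The shares at an unadjusted p and without overlap lay near those of all probe sets, although the direction without overlap was more often lower there. The median log2 difference over the 29 members was 0.05, with a range of -0.66 to 0.51, while the median over all tested probe sets was -0.03.

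**Figure D1:**
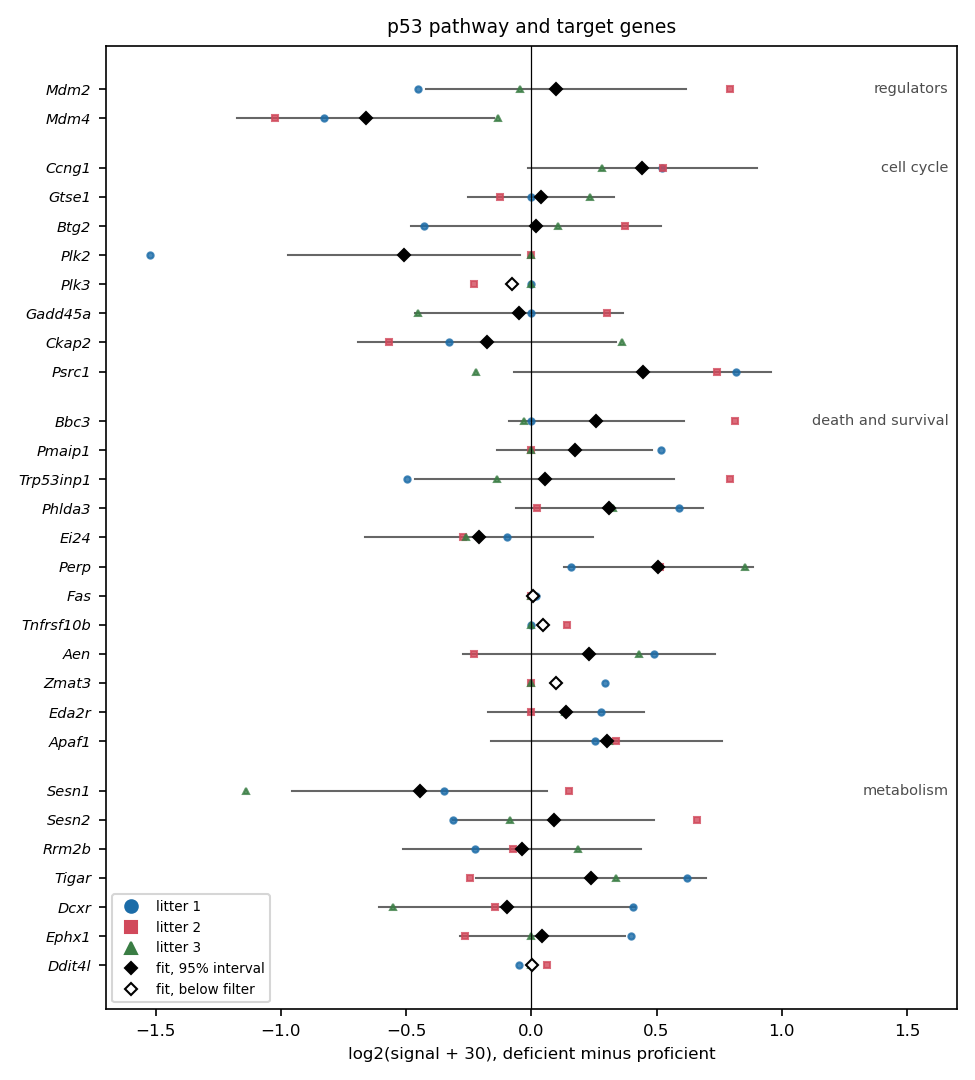
Log2(signal + 30), deficient minus proficient, for the 29 measured members by role. Black diamonds are the fitted differences with 95% intervals (open where the probe set was below the filter) and coloured symbols the 3 litters; the fitted values run from -0.66 to 0.51, and the litters of many members fall on both sides of 0.

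Neither of the p53 inhibitors Mdm2 and Mdm4 passed the test. The 95% intervals of their brightest probe sets overlapped, and the difference between the genes was not tested. Mdm2, the ubiquitin ligase of p53, measured 272, 140 and 259 in deficient cells of litters 1, 2 and 3, against 382, 68.1 and 269 in proficient cells. The deficient-over-proficient ratio was thus 0.710 in litter 1, 2.05 in litter 2 and 0.965 in litter 3, and the groups overlapped. Its fitted log2 difference was 0.10 (95% interval -0.42 to 0.62, limma, adjusted p = 0.909), and it turned to -0.25 without litter 2. Mdm4 had signals of 147, 44.7 and 109 in deficient cells against 284, 122 and 123 in proficient cells, lower in each deficient array than in its litter mate although the groups overlapped. The log2 difference was -0.66 (95% interval -1.17 to -0.15), with an unadjusted p of 0.0139 and an adjusted p of 0.286 in limma. Across all tested probe sets, 7.87% likewise had 1 direction in all litters and a difference of at least 0.5.

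A second probe set of Mdm4 ran the other way. Its signals were 146, 57.8 and 52.5 in deficient cells against 69.4, 36.2 and 31.4 in proficient cells, higher in each deficient array than in its litter mate. The log2 difference was 0.55 (95% interval 0.12 to 0.98, limma, unadjusted p = 0.0147, adjusted p = 0.289), and the 95% intervals of the 2 probe sets did not overlap; the difference between them was not itself tested. The remaining 2 Mdm4 probe sets did not leave the floor, and the mean over the probe sets gave a log2 difference of -0.03. No source used here says which transcripts or exons each probe set reads, so no direction is assigned to the gene as a whole. The 29 members had 57 probe sets in all, of which 39 were tested and 0 called by limma. Among the 9 members with several tested probe sets, 4 had fitted differences of both signs.

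**Figure D2:**
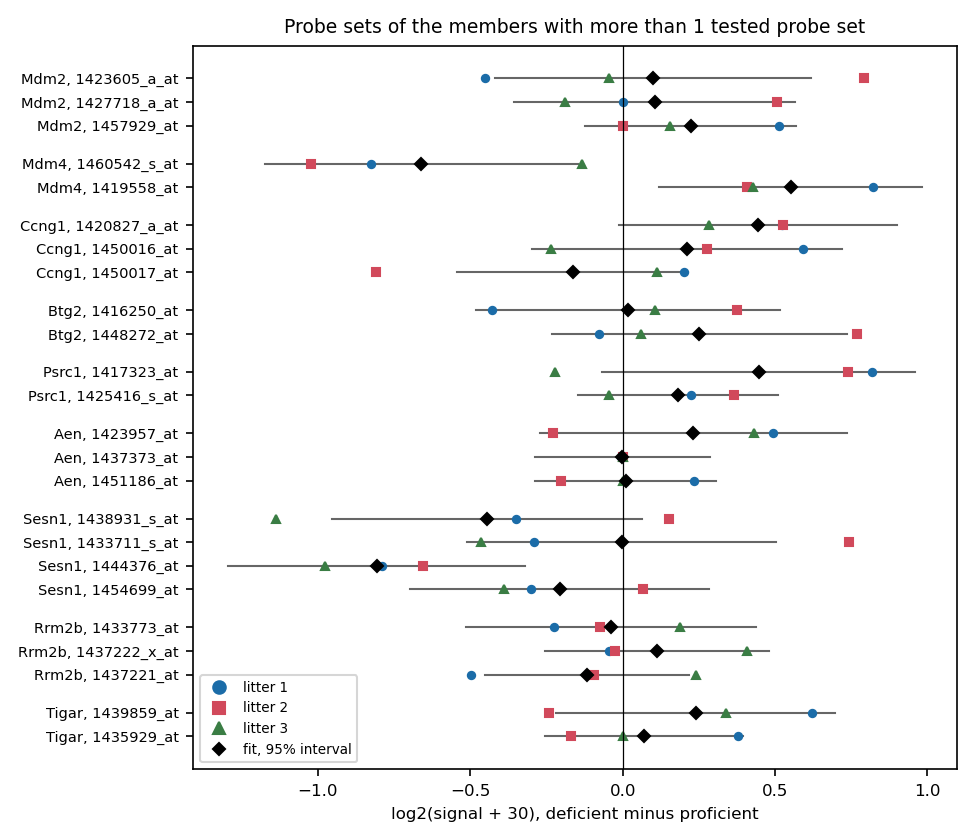
Log2(signal + 30), deficient minus proficient, for each tested probe set of the 9 members that had more than 1. Diamonds are fitted differences with 95% intervals and coloured symbols the litters; the 2 Mdm4 probe sets stand at -0.66 and 0.55, and those of Sesn1 run from -0.81 to 0.00.

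Perp and Phlda3, of the death and survival group, were the members whose groups did not overlap. Perp encodes a membrane protein with a role in p53-dependent apoptosis and in cell adhesion. Its signals were 46.6, 55.7 and 78.3 in deficient cells of litters 1, 2 and 3, against 38.7, 30 and 30 in proficient cells, where litters 2 and 3 were at the floor. All deficient arrays lay above all proficient ones. The log2 difference was 0.51 (95% interval 0.13 to 0.88, limma, unadjusted p = 0.0107, adjusted p = 0.258), with p = 0.1 by a two-sided exact permutation test, the smallest that 3 arrays against 3 can give. Groups of 3 arrays without overlap always reach that value, so it adds nothing to the lack of overlap. The permutation also took no account of litter. Phlda3, which competes with the kinase Akt for membrane lipids and so dampens survival signals, had signals of 60.2, 48.8 and 54.2 in deficient cells against 30, 47.6 and 37.2 in proficient cells. Litter 2 was nearly level, with a ratio of 1.02, against 2.01 in litter 1 and 1.46 in litter 3. Its log2 difference was 0.31 (95% interval -0.06 to 0.69, limma, adjusted p = 0.543), also with an exact permutation p of 0.1.

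**Figure D3:**
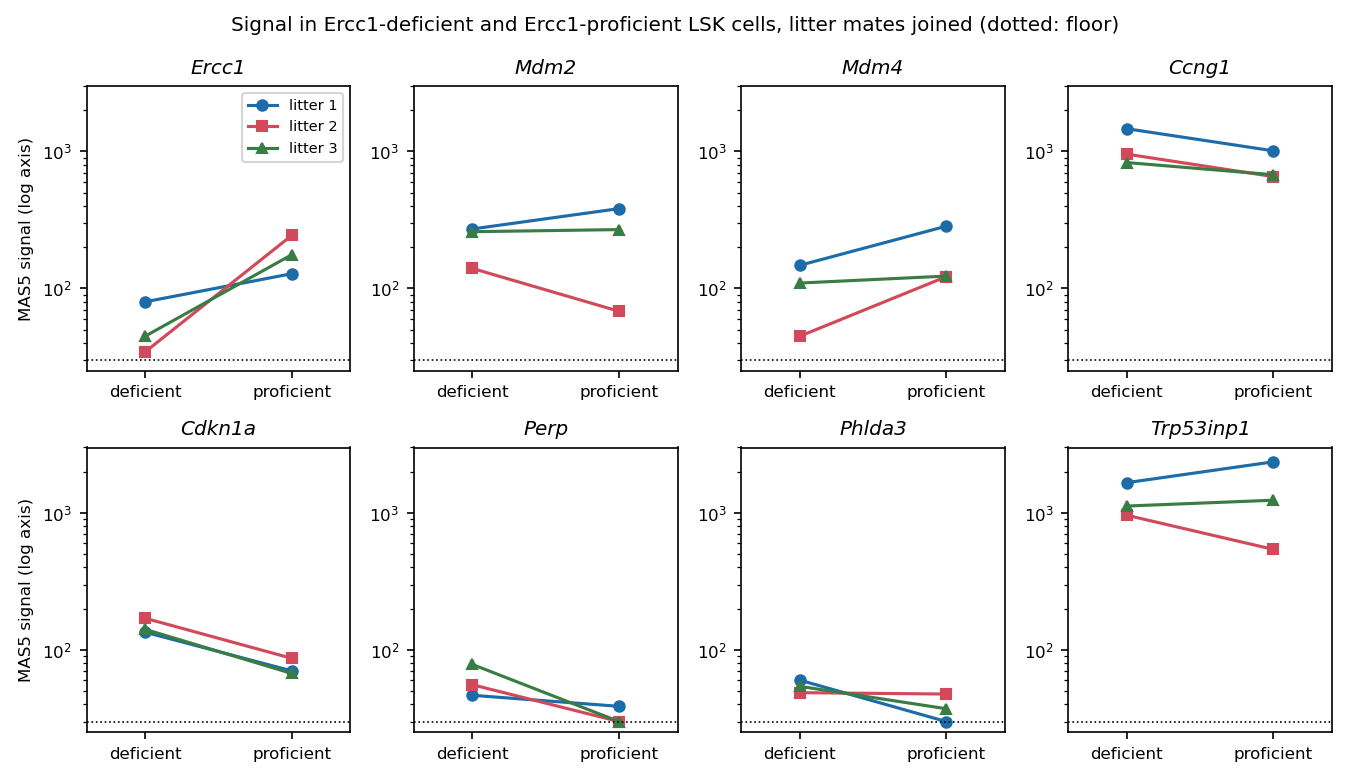
MAS5 signals on a log axis in Ercc1-deficient (left) and Ercc1-proficient (right) LSK cells, with litter mates joined and the floor of 30 dotted. Ercc1 is lower and Cdkn1a, Perp and Phlda3 are higher in every deficient array than in any proficient one, whereas Mdm2 and Trp53inp1 run in opposite directions in litters 1 and 2.

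Other genes of apoptosis varied by litter or sat near the floor. Apaf1, the scaffold of the apoptosome, had signals of 352, 180 and 284 in deficient cells against 290, 136 and 223 in proficient cells. Each deficient array was above its litter mate, by ratios of 1.21, 1.32 and 1.27, although the groups overlapped. With litter as a block the log2 difference was 0.30 (95% interval -0.16 to 0.76, limma, adjusted p = 0.653). The litters themselves lay further apart than these ratios, but the block takes that distance up, so it does not set the interval. Trp53inp1, a stress-induced partner of p53, ranged from 961 to 1662 in deficient and from 541 to 2358 in proficient cells. Aen, a nuclease of apoptotic cells, measured 112 to 199 in deficient and 92.6 to 140 in proficient cells, with litter 2 against the other litters. Ei24, a membrane protein of the endoplasmic reticulum induced by DNA damage, measured 261 to 361 in deficient and 322 to 426 in proficient cells. In each litter the deficient array was lower, at ratios of 0.931, 0.811 and 0.822, and its log2 difference of -0.21 (95% interval -0.67 to 0.24) did not pass in limma (adjusted p = 0.756).

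The BH3-only genes and the death receptors gave little signal. Bbc3, which encodes PUMA, reached 75.3 in deficient cells of litter 2 and was at 30 in the other deficient arrays, against 30, 30 and 31.3 in proficient cells. Pmaip1, which encodes NOXA, reached 55.9 in deficient cells of litter 1 only and was at the floor in all proficient arrays. Its deficient mean on the log2 scale was 1.23-fold the floor, on the strength of 1 array. This fold is no bound, since the other deficient arrays were at the floor too. Single deficient arrays were likewise the only ones above the floor for Fas (30.8, litter 1), Tnfrsf10b (36.2, litter 2) and Zmat3, an RNA-binding protein gene (43.6, litter 1). Eda2r, a receptor of the tumour necrosis factor family, measured 30 to 56.6 in deficient and 30 to 41.4 in proficient cells. Of the 12 measured members of this group, 11 had a fitted difference above 0, Ei24 being the exception, with a median of 0.16. That count includes members with 1 or 2 arrays above the floor, among them Fas, Tnfrsf10b and Zmat3, which were not tested. All probe sets tested had a difference above 0 in 46.0% of cases. That share leaves out probe sets below the filter, so it is not a like-for-like match for the count.

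Genes of the cell cycle went in both directions, 4 of 8 above 0 against 46.0% of all tested probe sets, and 0 of the 7 tested passed in limma. Ccng1, the cyclin G1 gene and a classical p53 target, measured 1464, 955 and 829 in deficient cells of litters 1, 2 and 3, against 1009, 654 and 675 in proficient cells. The ratio was 1.45, 1.46 and 1.23, higher in every litter, while the groups overlapped because litter 1 was brighter in both. The log2 difference was 0.44 (95% interval -0.01 to 0.90, limma, adjusted p = 0.452). The other tested Ccng1 probe sets had log2 differences of 0.21 and -0.16. Psrc1, a spindle-associated p53 target, measured 204, 292 and 190 in deficient cells against 103, 163 and 227 in proficient cells, so litter 3 ran against litters 1 and 2 (log2 difference 0.45, 95% interval -0.07 to 0.96).

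The remaining cell cycle genes showed no shared direction. Plk2, a polo-like kinase of the stress response, stayed at the floor in deficient cells of every litter and on 2 of 3 proficient arrays, and measured 143 in proficient cells of litter 1. The proficient mean on the log2 scale was 1.68-fold the floor (limma, adjusted p = 0.376), which rested on that single array. This fold is no bound, since the other proficient arrays were at the floor too. Its relative Plk3 was above the floor on 1 array, at 40.4 in proficient cells of litter 2. Btg2, an antiproliferative gene, measured 71.0 to 111 in deficient and 55.3 to 106 in proficient cells. Gadd45a, a growth arrest gene, measured 30 to 70.7 in deficient and 30 to 108 in proficient cells. Ckap2, a spindle protein gene, measured 82.9 to 139 in deficient and 101 to 176 in proficient cells, and Gtse1, whose product restrains p53 in G2 phase, reached 40.7 in deficient and 35.4 in proficient cells on 1 array each. Markers of dividing cells (7 measured) had a median log2 difference of 0.24, with summed signals of 4886 to 7543 in deficient and 4265 to 8251 in proficient arrays, and their part in these values was not tested.

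Genes of metabolism and redox defence had a median log2 difference of 0.00, and 4 of 7 were above 0, against 46.0% of all tested probe sets. Sesn1, a sestrin that restrains mTORC1 and counters oxidants, measured 686, 972 and 405 in deficient cells of litters 1, 2 and 3, against 882, 873 and 927 in proficient cells. The deficient array was clearly the lower one in litter 3, at a ratio of 0.437, and the higher one in litter 2, at 1.11. A dimmer Sesn1 probe set had the lowest adjusted p of all 39 tested, with signals of 234, 34.9 and 56.9 in deficient cells against 427, 72.2 and 141 in proficient cells. It was the lower one in deficient cells of all 3 litters (log2 difference -0.81, 95% interval -1.30 to -0.32, limma, adjusted p = 0.131), whereas the other 3 Sesn1 probe sets ran from -0.45 to 0.00.

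Sesn2, the other sestrin on the list, measured 33.1 to 81.8 in deficient and 39.8 to 48.3 in proficient cells. Rrm2b, the p53-inducible subunit of ribonucleotide reductase, followed the litter rather than the genotype. Its signals were 351, 105 and 155 in deficient cells against 416, 112 and 132 in proficient cells, with a log2 difference of -0.04 (95% interval -0.51 to 0.44). Tigar, a phosphatase that slows glycolysis, measured 66.8 to 74.1 in deficient and 32.9 to 85.0 in proficient cells. Dcxr, a carbonyl reductase, also followed the litter, with 60.8 in deficient and 38.5 in proficient cells of litter 1 and between 137 and 261 on the other 4 arrays. Ephx1, an epoxide hydrolase, stayed between 30 and 49.0 in deficient and between 30 and 48.5 in proficient cells, and Ddit4l, an inhibitor of mTORC1, did not exceed 34.7 in deficient or 37.0 in proficient cells.

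Several members shared a pattern across litters that did not follow the genotype, as was seen after their values were examined. Mdm2, Trp53inp1 and Sesn2 were lower in the deficient array of litter 1, higher in that of litter 2 and nearly level in litter 3. The log2 differences in litters 1, 2 and 3 were -0.45, 0.79 and -0.05 for Mdm2. They were -0.50, 0.79 and -0.14 for Trp53inp1, and -0.31, 0.66 and -0.09 for Sesn2. For Sesn2 the rise in litter 2 rested on 1 array at 81.8, the others lying between 33.1 and 48.3. The share of all probe sets with this pattern was not counted. Aen and Tigar ran the other way in litter 2, with log2 differences of 0.49, -0.23 and 0.43 for Aen and of 0.62, -0.24 and 0.34 for Tigar. Of the 24 tested members, 6 had the same direction in all 3 litters. Higher in all of them were Ccng1, Phlda3, Perp and Apaf1, and lower were Mdm4 and Ei24; over all tested probe sets, 11.3% were higher and 17.0% lower in all 3 litters.

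Further genes of the pathway were followed to place the members, and 33 were measured and 29 tested, with a median log2 difference of -0.01. Limma called 0 of them. At an unadjusted p under 0.05 there were 5 of 29 (Cdkn1a, Shisa5, Trp53bp1, Rps27l and Cd82), against 11.5% of all probe sets tested. The groups of 4 (Cdkn1a, Chek2, Polk and Shisa5) did not overlap, against 7.19% of all probe sets tested. Rps27l had a log2 difference of 0.64, with litter 3 against the other litters. That of Cd82 was -0.49, lower in each litter, and the groups of both genes overlapped. Cdkn1a, which encodes the cell cycle inhibitor p21 and is the best known p53 target, measured 135, 170 and 141 in deficient cells of litters 1, 2 and 3, against 70.3, 86.8 and 67.3 in proficient cells. Its ratios of 1.91, 1.96 and 2.10 were close to one another and the groups did not overlap. The log2 difference was 0.77 (95% interval 0.28 to 1.26, limma, unadjusted p = 0.0034, adjusted p = 0.153), and it stayed between 0.75 and 0.80 when any litter was left out. As the mean over the 2 Cdkn1a probe sets it was smaller, at 0.57 (limma, adjusted p = 0.153). Of the members with a decamer in a promoter window, Ccng1 was higher and Ei24 lower in each litter, and Mdm2 had ratios on both sides of 1. The part of p53 in these values was not tested.

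Shisa5, which encodes the p53-induced endoplasmic reticulum protein Scotin, ran the other way. Its signals were 982, 1333 and 921 in deficient cells against 1871, 2030 and 1641 in proficient cells, without overlap (log2 difference -0.77, 95% interval -1.24 to -0.31, limma, adjusted p = 0.129). Polk, a translesion DNA polymerase, measured 83.1, 82.4 and 51.8 in deficient cells against 146, 91.8 and 99.1 in proficient cells, also without overlap (log2 difference -0.47, limma, adjusted p = 0.463). Upstream of p53, the checkpoint kinase Chek2 measured 569, 363 and 428 in deficient cells against 316, 349 and 284 in proficient cells, without overlap (log2 difference 0.46, limma, adjusted p = 0.451). Trp53bp1, which encodes the damage response protein 53BP1, had the lowest p of the upstream genes tested, with signals of 1035, 1103 and 445 in deficient cells against 1291, 1282 and 1016 in proficient cells. It was lower in the deficient array of each litter (log2 difference -0.55, limma, unadjusted p = 0.0286, adjusted p = 0.361). The acetyltransferase gene Kat5 measured 57.2 to 111 in deficient and 82.0 to 148 in proficient cells, also lower in each litter (log2 difference -0.49, limma, adjusted p = 0.441). The damage kinase Atm measured 66.5 to 162 in deficient and 121 to 259 in proficient cells, and Cdkn2a, whose Arf product blocks Mdm2, was at the floor on all arrays.

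**Figure D4:**
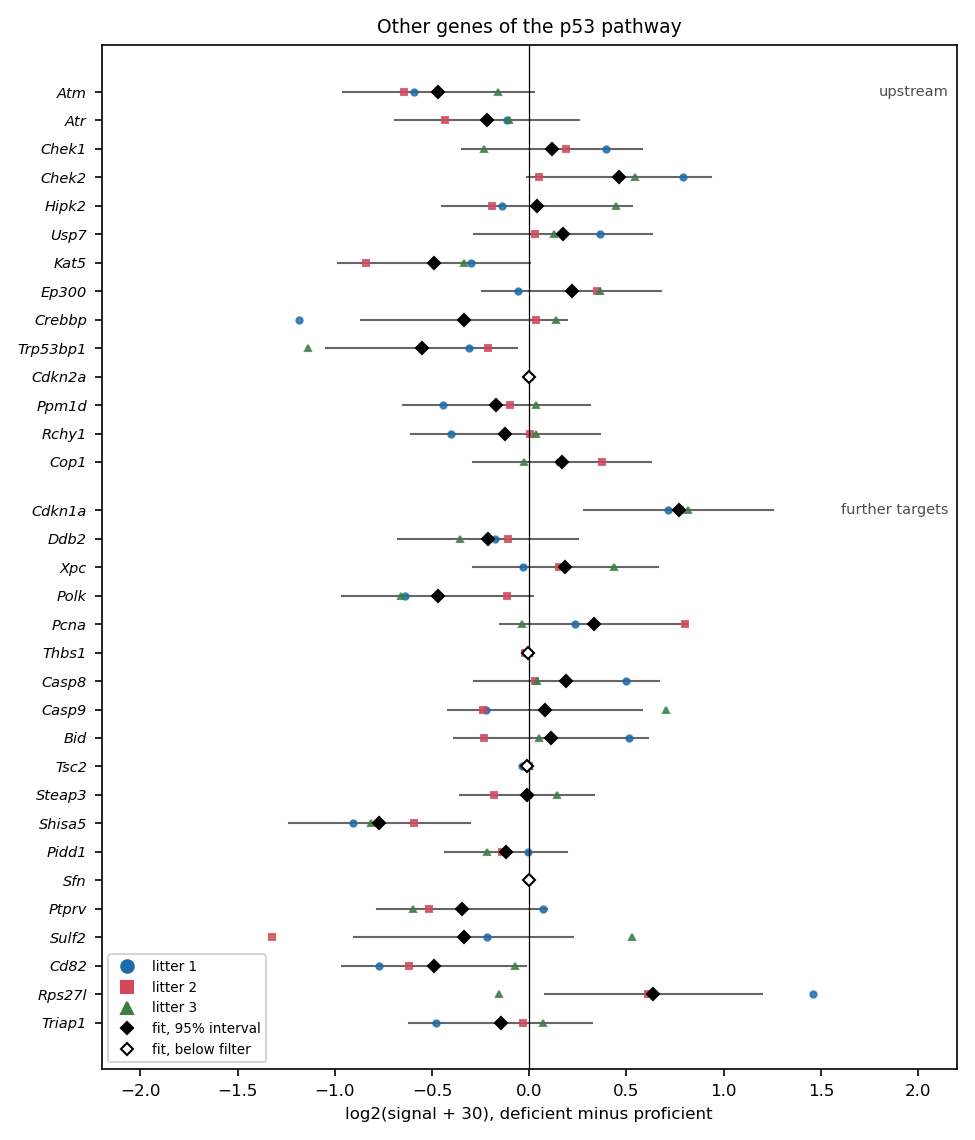
Log2(signal + 30), deficient minus proficient, for 14 upstream genes and 19 further targets of p53, drawn with fitted differences, 95% intervals and litters. Cdkn1a at 0.77 and Shisa5 at -0.77 stand furthest from 0 on either side, and their 3 litters lie close together.

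Markers of other cell types were measured in the same fit. Of 12 measured markers of maturing granulocytes, 6 rose in deficient cells with litter as a block in limma, where 0.835% of all probe sets were called, and the summed signal of the list was 5981 to 88560 in deficient and 624 to 18882 in proficient arrays. Mmp8 and Cxcr2 of that list were at the floor on all arrays. Among 7 measured LSK markers, Flt3, Procr and Hlf fell. Kit and Cd34 were also lower in each litter, with log2 differences of -0.53 and -0.50, but did not pass. Slamf1 and Mecom had log2 differences of 0.36 and 0.15 and did not pass. Without the block, or without any 1 litter, limma called 0 probe sets, so none of these marker calls held there. B and T cell markers summed to 352 to 525 in deficient and 292 to 429 in proficient arrays, with Cd3g and Cd79a at the floor on all of them. The summed erythroid markers were 688 to 1089 in deficient and 583 to 1377 in proficient arrays, with Alas2 at the floor throughout, and megakaryocyte markers summed to 1189 to 2673 in deficient and 576 to 2086 in proficient arrays. The part of these cell types in the values of Perp, Phlda3, Mdm4 and Cdkn1a was not tested.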

How the data were processed

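Linearly amplified RNA from 6 samples was hybridised to Affymetrix Mouse Genome 430 2.0 arrays. The values deposited by the authors are signal intensities from MAS5, a tool named in the submitters' processing notes; no value lay below 30, and no source used here names the step that set this floor. The 64 control probe sets were left out. Of 45037 others, 34945 had 1 symbol in the platform annotation of 2016.

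Signals were transformed as log2(signal + 30) and fitted with limma 3.58.1 under R 4.3.3 (eBayes with a variance trend) on the 22519 probe sets with a mean signal of at least 32.6, with Benjamini-Hochberg adjustment over all of them. Litter was a block because the labels name each sample's litter mate, and equal numbers pair the samples. Litter mates deviated together from their groups' means, with r = 0.77, 0.67 and 0.46. Replicates are samples, possibly pools, and p-values extend to no samples beyond these. Because eBayes draws each probe set's variance towards the trend over all tested probe sets, they do not measure the spread of a single probe set alone. Where 1 group lay at the floor on all its arrays, the fold given is the brighter group's mean log2 signal against the floor. It is no bound for Plk2 and Pmaip1, whose brighter groups also had arrays at the floor. The fit was tested on simulated data that had no floor and held changes only in brighter probe sets. That test therefore does not bear on members near the floor. The members, gene lists and tests were chosen with earlier results of these data known. Per-array values were given for regulators, for members whose groups did not overlap and for those with 1 direction in all litters and a difference of at least 0.5; among pathway genes outside the list, non-overlap alone decided. Ccng1, Apaf1, Psrc1, Sesn1, Rrm2b, Bbc3, Trp53bp1, Kat5, Atm, Rps27l and Cd82 were added after their values were seen. Alternatives were other scalings, pseudocounts, filters, variance models and probe set rules, no block, and each litter left out.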

Additional observations from a re-analysis of the deposited data

How the results depend on the processing

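The count of called p53 members was 0 under all alternatives run, including the fit without the litter block, and the lowest adjusted p of a member under any of them was 0.114, for Perp with median centring. The count over all probe sets was less stable. It was 188 with the block (37.8% of the calls higher), 300 with median centring (50.7% higher), 114 with no variance trend, 0 with no replicate block, 0 with no filter, and 0 to 0 when a litter was left out. At an unadjusted p under 0.05 limma had 579 with no block, 1825 with no filter and between 1288 and 1705 without 1 litter, where fewer arrays remain; the cause of the other changes was not tested. The median log2 difference of the members was 0.05 as reported, 0.11 with median centring and 0.00 to 0.13 without 1 litter; the median of all tested probe sets was 0.04 with centring and -0.03 without. Leaving out both arrays of a litter stands for leaving out either, since the block then takes up the remaining array.

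Among the members, signs turned only for those listed here, the furthest from 0 otherwise being Bbc3 at 0.26. With quantile normalization Gadd45a was at 0.0121, Trp53inp1 at -0.10, Rrm2b at 0.0213 and Ddit4l at -0.00308, and with median centring Gadd45a was at 0.0163 and Rrm2b at 0.0275. Without 1 litter the log2 differences ran from -0.23 to 0.15 for Gadd45a, -0.32 to 0.33 for Trp53inp1, -0.15 to 0.0567 for Rrm2b, -0.0248 to 0.0316 for Ddit4l, -0.13 to 0.20 for Ephx1 and -0.25 to 0.37 for Mdm2. They ran from -0.16 to 0.24 for Btg2, -0.45 to 0.0170 for Ckap2, -0.0154 to 0.41 for Bbc3, -0.20 to 0.29 for Sesn2, -0.0619 to 0.12 for Gtse1 and -0.35 to 0.13 for Dcxr. Perp (0.34 to 0.68), Phlda3 (0.17 to 0.46), Mdm4 (-0.92 to -0.48) and Shisa5 (-0.86 to -0.70) kept their signs without any 1 litter. The call of Ercc1 was lost with no block, no filter, no variance trend, the mean over probe sets and without any 1 litter. Its log2 difference was -0.45 (limma, adjusted p = 0.250) as the mean over probe sets and -1.78 to -0.99 without 1 litter, against -1.36 as reported. With 3 arrays per group and 14 of 29 members at the floor on at least 1 array, differences among weak members were not resolved.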
